A study of Sus scrofa with 32 samples.

Results

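The circadian clock genes NR1D1, NR1D2, PER1, PER2, PER3, CRY1, CRY2, CLOCK, DBP and TEF are described here, 10 of the 30185 NCBI genes in the count tables of pig endometrium. They were matched by pig gene symbol. They were picked because of how they differed between pregnant and nonpregnant gilts, so for these 10 genes that comparison is given as values with standard errors and without a test. The compartments are the luminal (LE) and the glandular epithelium (GE), the blood vessels (BV) and the stroma (S), and the filtered tables of the authors hold 12002, 11905, 11096 and 11935 genes for them, called detectable below. All 10 clock genes are in all 4 filtered tables.

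The study asked where in the endometrium gene expression differed between pregnant and cyclic gilts on Day 14, when conceptuses begin to attach. Prepubertal gilts were synchronized with eCG and then hCG, and 4 were inseminated with semen (pregnant) while 4 received semen supernatant of the same boar (nonpregnant, called cyclic). Endometrium of pregnant gilts was taken from hyperemic zones, and LE, GE, BV and S were cut from stained frozen sections by laser capture microdissection, with 1 library from picogram amounts of RNA for each gilt and compartment. No count column was given for GE of pregnant gilt P41, so pregnant GE has n = 3, every other group has n = 4, and there are 31 libraries. All compartments came from the same 8 gilts, named here by C (cyclic) or P (pregnant) and the number in their labels (C128, C40, C42 and C78, P139, P39, P41 and P43), so the 4 comparisons of pregnant with cyclic gilts share animals, and the spread given is that between gilts. The time of day at which the gilts were slaughtered is not given in the sources used here.

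In the mammalian clock, the proteins CLOCK and BMAL1 bind E-box sequences and switch on the Period (PER) and Cryptochrome (CRY) genes, whose proteins then inhibit CLOCK and BMAL1. A further loop runs through REV-ERB alpha and beta, encoded by NR1D1 and NR1D2, which repress BMAL1 at ROR elements, where ROR proteins activate it. DBP and TEF are transcription factors of the PAR bZIP family that carry the rhythm to output genes through D-box sequences, and clock genes cycle in most tissues, the uterus included.

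The promoters of 4 of the genes are printed, those of PER1 and PER3 because they hold an E-box and those of NR1D1 and DBP because the log2 fold changes of these genes were the largest among the 10 in every compartment. Each window covers 250 bases before to 50 bases after the start of the gene, 300 bases in all, 5′ to 3′ on the strand of the gene, as read from the RefSeq genome Sscrofa11.1. Capitals mark a match to the E-box CACGTG, the D-box TTANGTAA or AGGTCA, the core of ROR elements, searched on both strands; no match overlapped another.
NR1D1, chr12:22263299-22263598, plus strand: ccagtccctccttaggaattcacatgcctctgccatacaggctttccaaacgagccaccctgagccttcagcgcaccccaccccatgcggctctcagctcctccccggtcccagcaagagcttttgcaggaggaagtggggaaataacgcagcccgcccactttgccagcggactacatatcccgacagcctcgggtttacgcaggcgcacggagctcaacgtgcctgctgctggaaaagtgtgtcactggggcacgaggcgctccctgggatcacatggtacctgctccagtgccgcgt
PER1, chr12:53376674-53376973, minus strand: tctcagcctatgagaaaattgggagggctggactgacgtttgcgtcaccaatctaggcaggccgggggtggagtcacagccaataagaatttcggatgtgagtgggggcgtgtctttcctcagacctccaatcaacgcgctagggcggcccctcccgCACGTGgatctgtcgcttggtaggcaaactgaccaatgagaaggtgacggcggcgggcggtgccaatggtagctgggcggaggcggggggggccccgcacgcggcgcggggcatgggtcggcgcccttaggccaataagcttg
PER3, chr6:68487384-68487683, plus strand: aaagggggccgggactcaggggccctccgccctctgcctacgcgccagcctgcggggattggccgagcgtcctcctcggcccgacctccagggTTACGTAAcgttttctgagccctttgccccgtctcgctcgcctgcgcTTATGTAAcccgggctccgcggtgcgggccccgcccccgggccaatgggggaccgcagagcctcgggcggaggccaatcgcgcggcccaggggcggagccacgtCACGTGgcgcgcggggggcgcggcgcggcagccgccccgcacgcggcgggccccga
DBP, chr6:53992995-53993294, minus strand: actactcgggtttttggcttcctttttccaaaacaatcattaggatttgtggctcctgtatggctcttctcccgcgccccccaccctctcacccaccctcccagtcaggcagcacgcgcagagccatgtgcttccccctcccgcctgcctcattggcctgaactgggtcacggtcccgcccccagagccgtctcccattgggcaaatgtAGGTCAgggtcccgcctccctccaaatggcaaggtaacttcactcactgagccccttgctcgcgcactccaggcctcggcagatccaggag

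Windows of 9 of the genes were searched. The E-box was found in 2 of the 9, at position -93 of PER1 and at -6 of PER3, counted from the gene start to the first base of the match. Of all 19545 promoter windows of this length, 7.92% held it. The D-box was found in PER3 alone, at -157 and -110, against 1.83% of all windows. The ROR core was found at -163 of NR1D2, -18 of CRY2 and -41 of DBP, against 14.1% of all windows. A match is a description of these letters and was not tested as a binding site, and the windows of NR1D1, PER2, CRY1 and CLOCK held no match.

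In Sscrofa11.1, NR1D1 is at chr12:22263549-22274131 and NR1D2 at chr13:10756954-10791219, both on the plus strand. PER1 is at chr12:53361863-53376723 and PER2 at chr15:137793419-137837854, both on the minus strand, and PER3 at chr6:68487634-68548718 on the plus strand. CRY1 is at chr5:13275265-13429566 on the plus strand, CRY2 at chr2:16587101-16620380 on the minus strand and CLOCK at chr8:54793323-54910192 on the minus strand. DBP is at chr6:53986955-53993044 and TEF at chr5:7119354-7135171, both on the minus strand. Exons of other genes covered part of 3 of them: THRA on the other strand covered 41.1% of the exon bases of NR1D1, TMEM165 on the other strand covered 44.3% of those of CLOCK, and MTERF2 on the same and TMEM263 on the other strand covered 13.9% and 9.15% of those of CRY1. Whether strand was used in counting is not given in the sources used here, so reads in those stretches could belong to either gene.

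Library totals ranged from 2415216 to 7081556 counts, and ribosomal RNA genes took 5.2% to 16.9% of them. Marker sums checked the compartment labels: 8 epithelial genes summed to 2300 to 3350 counts per 1000000 (CPM) in LE and 1500 to 1840 CPM in GE, and 6 smooth muscle genes summed to 1080 to 18100 CPM in BV, 429 to 1200 CPM in S and at most 460 CPM in LE and GE. The sums of 7 endothelial genes overlapped between BV and S. They were 1490 to 2920 CPM in BV and 504 to 1640 CPM in S of cyclic gilts, and 1740 to 2980 and 919 to 2720 CPM in pregnant gilts. In LE they ran from 124 to 998 CPM and in GE from 15.8 to 176 CPM. The epithelial captures were not free of stromal RNA. Sums of 7 fibroblast genes, collagens included, were 4130 to 16600 CPM in LE and 2900 to 7550 CPM in GE. In BV they were 25300 to 91300 CPM in cyclic and 30600 to 75700 CPM in pregnant gilts. These ranges overlapped those in S, 36900 to 107000 and 41200 to 94800 CPM. In LE the epithelial sum was lower in pregnant gilts, 2300 to 2640 against 2910 to 3350 CPM, with 2 of the 8 genes past the limit given below. In S the smooth muscle sum was 429 to 571 CPM in pregnant and 476 to 1200 CPM in cyclic gilts, with 1 of the 6 genes past it, lower in pregnant gilts. No marker gene was at 0 in all libraries of any group. In BV the epithelial sum was higher in pregnant gilts, 161 to 296 CPM against 2.56 to 48.6 CPM in cyclic gilts, with 1 of the 8 genes past the limit. The smooth muscle sum in BV was 1080 to 6870 CPM in pregnant and 6010 to 18100 CPM in cyclic gilts. These ranges overlapped, and 0 of the 6 genes were past the limit. In S the epithelial sum was 11.7 to 177 CPM in cyclic and 33 to 454 CPM in pregnant gilts. A sum over 8 leukocyte genes was 46 to 90.7 CPM in cyclic and 84.5 to 126 CPM in pregnant LE, and 47.1 to 72.8 against 90.4 to 124 CPM in GE. In these bulk captures, fewer cells of a type and less RNA per cell cannot be told apart.

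NR1D1 differed most among the 10 genes. It was higher in every pregnant than in every cyclic library of the same compartment. Values are CPM after TMM scaling over all 31 libraries, and log2 fold changes are pregnant minus cyclic from the fit of 1 compartment, with standard errors (SE). In LE, NR1D1 was at 3.48, 3.06, 3.14 and 7.96 CPM in cyclic gilts C128, C40, C42 and C78, and at 45.8, 17.2, 17.6 and 28.8 CPM in pregnant gilts P139, P39, P41 and P43. The lowest pregnant value was thus above the highest cyclic one, that of C78. The means were 4.41 ± 2.38 (SD, n = 4) and 27.3 ± 13.4 CPM (SD, n = 4), and the log2 fold change was 2.62 (SE 0.47). The cyclic LE values rested on 11 to 35 counts, so counting error is part of their spread. In GE, NR1D1 was at 3.02, 5.3, 3.03 and 8.48 CPM in the same order of cyclic gilts and at 54.9, 39.6 and 43.3 CPM in pregnant gilts P139, P39 and P43, a log2 fold change of 3.19 (SE 0.37). The cyclic GE values rested on 14 to 40 counts.

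The log2 fold change of NR1D1 was smaller in BV and S, where its cyclic level was higher than in the epithelia. In BV, it was at 13.8, 14.7, 15 and 21.2 CPM in cyclic and 37.6, 45.9, 42.9 and 51.6 CPM in pregnant gilts, a log2 fold change of 1.47 (SE 0.19). In S, it was at 18.4, 29.7, 31.7 and 20.9 CPM in cyclic and 54, 99.5, 61.6 and 75.6 CPM in pregnant gilts, a log2 fold change of 1.54 (SE 0.25). Pregnant gilts were again all above cyclic gilts. In a joint fit of all libraries, the log2 fold change of NR1D1 in GE exceeded that in BV by 1.74 (SE 0.49) and that in S by 1.67 (SE 0.48), the one in LE exceeded that in BV by 1.14 (SE 0.48) and that in S by 1.07 (SE 0.47), and BV differed from S by -0.07 (SE 0.46). THRA, which overlaps NR1D1 and was looked at for that reason, had log2 fold changes of 0.83, 0.90, 0.32 and 0.36 (LE, GE, BV, S), none of them called (edgeR's quasi-likelihood test, adjusted p = 0.0793, 0.0632, 0.305 and 0.471).

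NR1D2, the other REV-ERB gene, had its largest log2 fold change in LE. In LE it was at 91, 116, 97 and 99.9 CPM in cyclic and at 248, 224, 248 and 256 CPM in pregnant gilts. The groups lay far apart with little spread within them, and the log2 fold change was 1.29 (SE 0.14). In GE the cyclic values were wider, 67.2, 134, 104 and 164 CPM, still all below the pregnant values of 214, 231 and 184 CPM, and the log2 fold change was 0.82 (SE 0.29). In BV and S the groups overlapped: cyclic values ran from 182 to 256 CPM and from 159 to 379 CPM, pregnant values from 222 to 311 CPM and from 286 to 376 CPM, and the log2 fold changes were 0.37 (SE 0.15) and 0.33 (SE 0.24). The log2 fold change in LE exceeded that in BV by 0.91 (SE 0.30) and that in S by 0.95 (SE 0.30). It exceeded that in GE by 0.44 (SE 0.32). The one in GE exceeded that in BV by 0.47 (SE 0.31) and that in S by 0.51 (SE 0.31). Per kb of exon, NR1D2 was the more abundant of the pair, with 19.3 ± 2.04 CPM per kb in cyclic LE against 0.607 ± 0.327 CPM per kb for NR1D1 (SD, n = 4), and 46.7 ± 2.6 against 3.76 ± 1.85 CPM per kb in pregnant LE.

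DBP and TEF, the output factors, were higher in all pregnant than in all cyclic libraries in each of the 4 compartments. DBP in GE was at 4.11, 3.69, 2.22 and 4.45 CPM in cyclic and at 17.5, 23.8 and 14.9 CPM in pregnant gilts, a log2 fold change of 2.36 (SE 0.30). Its cyclic GE values rested on 11 to 21 counts. In S, DBP was at 13, 9.25, 9.48 and 13.5 CPM in cyclic and at 25.3, 32.3, 20.6 and 24.9 CPM in pregnant gilts, a log2 fold change of 1.18 (SE 0.21). The gap was thus wider in GE than in S, and the log2 fold change in GE exceeded that in S by 1.19 (SE 0.36) and that in BV by 1.09 (SE 0.37). In LE, DBP was low, with 1.59 to 3.48 CPM from 7 to 13 counts in cyclic and 5.57 to 9.77 CPM in pregnant gilts, a log2 fold change of 1.47 (SE 0.36). In BV it ran from 6.59 to 10.8 CPM in cyclic and from 17.2 to 29.2 CPM in pregnant gilts, a log2 fold change of 1.29 (SE 0.25).

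TEF had log2 fold changes close to each other in LE, GE and BV. In LE it was at 12, 8.3, 13.4 and 8.65 CPM in cyclic and at 27, 18.1, 28.3 and 24 CPM in pregnant gilts, a log2 fold change of 1.22 (SE 0.23). In GE it was at 18.8, 35.7, 35.5 and 36.7 CPM in cyclic and at 63, 81 and 89.6 CPM in pregnant gilts, a log2 fold change of 1.28 (SE 0.26). Cyclic gilt C128 was the low one in GE but the high one in BV, where TEF was at 42.4, 29.1, 32.1 and 31.4 CPM in cyclic and at 72.3, 80.3, 76.6 and 70.9 CPM in pregnant gilts (log2 fold change 1.16, SE 0.15). In S it ran from 29.6 to 47.6 CPM in cyclic and from 55.2 to 80.1 CPM in pregnant gilts (log2 fold change 0.82, SE 0.19).

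**Figure D1:**
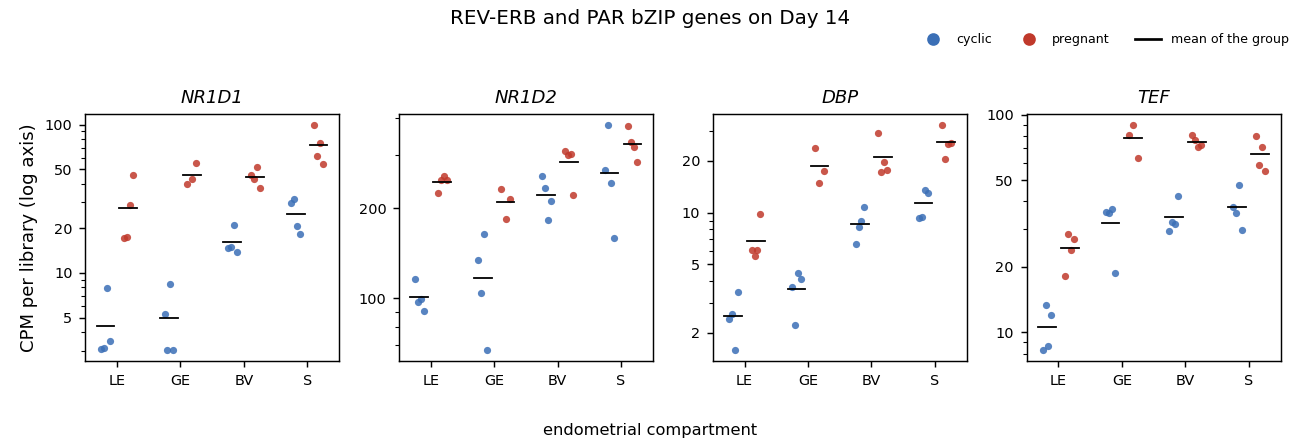
CPM on a log axis of NR1D1, NR1D2, DBP and TEF in LE, GE, BV and S, with a point for each library (cyclic blue, pregnant red) and a bar at the mean of the group. Pregnant points of NR1D1, DBP and TEF lie above all cyclic points in all 4 compartments, while those of NR1D2 overlap the cyclic ones in BV and S.

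Of the Period genes, whose proteins form the inhibiting arm of the clock, PER1 differed most clearly in BV. It was there at 41.4, 37.2, 41.2 and 38.7 CPM in cyclic and at 79.9, 103, 87 and 100 CPM in pregnant gilts, a log2 fold change of 1.23 (SE 0.13). The cyclic values lay close together and the pregnant ones all well above them. In LE, PER1 was at 22.5 to 41.5 CPM in cyclic and 47.4 to 70.3 CPM in pregnant gilts (log2 fold change 0.98, SE 0.22), and in GE at 84.6 to 108 and 132 to 157 CPM (0.52, SE 0.15). In S the groups overlapped: pregnant gilt P139 had 51.9 CPM, below all cyclic values of 57.2 to 71.9 CPM, while the other pregnant gilts had 82.5 to 116 CPM (0.45, SE 0.23).

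PER2 varied most among the cyclic gilts in LE and GE, relative to its mean. In LE it was at 9.9, 48.7, 51.4 and 18 CPM in cyclic gilts C128, C40, C42 and C78 and at 48.1, 31.2, 42.8 and 53.8 CPM in pregnant gilts, so the groups overlapped (log2 fold change 0.48, SE 0.47). In GE it was at 6.27, 41.5, 53.7 and 65.9 CPM in cyclic and at 116, 110 and 98.3 CPM in pregnant gilts (1.35, SE 0.60). Cyclic gilt C128 was the lowest in both epithelia, but with 28.6 CPM it was the highest of the cyclic gilts in BV. There the pregnant values of 35.2 to 52.9 CPM lay above the cyclic ones of 18.7 to 28.6 CPM (0.81, SE 0.20), while in S the groups overlapped at 17 to 26.2 and 21.7 to 38.1 CPM (0.37, SE 0.23).

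For PER3, the third Period gene, the groups lay apart in both epithelia and overlapped in BV and S. It was at 19.5 to 26.6 CPM in cyclic and 36.5 to 48.1 CPM in pregnant LE (log2 fold change 0.87, SE 0.17), and at 23.3 to 30.4 against 38.2 to 41.7 CPM in GE (0.58, SE 0.15). In BV the ranges met at 107 CPM (0.49, SE 0.16), and in S the pregnant values of 78.6 to 205 CPM overlapped the cyclic ones of 77.3 to 111 CPM (0.42, SE 0.28).

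The Cryptochrome genes went different ways. CRY2 in GE was at 83.8, 120, 138 and 113 CPM in cyclic and at 270, 258 and 265 CPM in pregnant gilts, a log2 fold change of 1.20 (SE 0.19), and the pregnant values hardly varied. In LE it was at 13.6, 16.8, 13.7 and 24.3 CPM in cyclic and at 51.2, 39.8, 21.4 and 30.1 CPM in pregnant gilts, where pregnant gilt P41 lay below cyclic gilt C78 (1.06, SE 0.32). In BV the ranges were 24.9 to 35.7 and 38.3 to 94.3 CPM (1.07, SE 0.26), and in S 24.4 to 33.8 and 27.1 to 53.5 CPM (0.64, SE 0.23). CRY1 had log2 fold changes below 0 in every compartment, -0.16 (SE 0.24) for LE, -0.13 (SE 0.17) for GE, -0.38 (SE 0.14) for BV and -0.20 (SE 0.14) for S. In BV all cyclic values of CRY1, 51.8, 49.2, 44 and 47.2 CPM, lay above all pregnant ones, 42.3, 38.7, 31.4 and 33.8 CPM. TMEM263 and MTERF2, which overlap CRY1, were looked at for that reason. TMEM263 had log2 fold changes of -0.49, -0.57, -0.82 and -1.01 (LE, GE, BV, S). MTERF2 had -0.4, -0.04, 0.06 and -0.01. None of these was called by edgeR's quasi-likelihood test. How far shared reads enter the values of CRY1 was not tested.

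CLOCK, the activator, differed little. It was at 195 to 209 CPM in cyclic and 164 to 217 CPM in pregnant LE (log2 fold change -0.03, SE 0.14), and at 83 to 104 against 108 to 140 CPM in GE, where the groups lay apart (0.33, SE 0.15). In BV and S the log2 fold changes were -0.26 (SE 0.18) and -0.25 (SE 0.12) with overlapping groups. TMEM165, which overlaps CLOCK and was looked at for that reason, was lower in pregnant LE by the same test (98.1 ± 22.5 to 24.9 ± 5.14 CPM, SD, n = 4, log2 fold change -1.95, SE 0.21, edgeR adjusted p = 0.0016), and its other log2 fold changes were -0.58 in GE, -1.07 in BV and -0.59 in S.

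**Figure D2:**
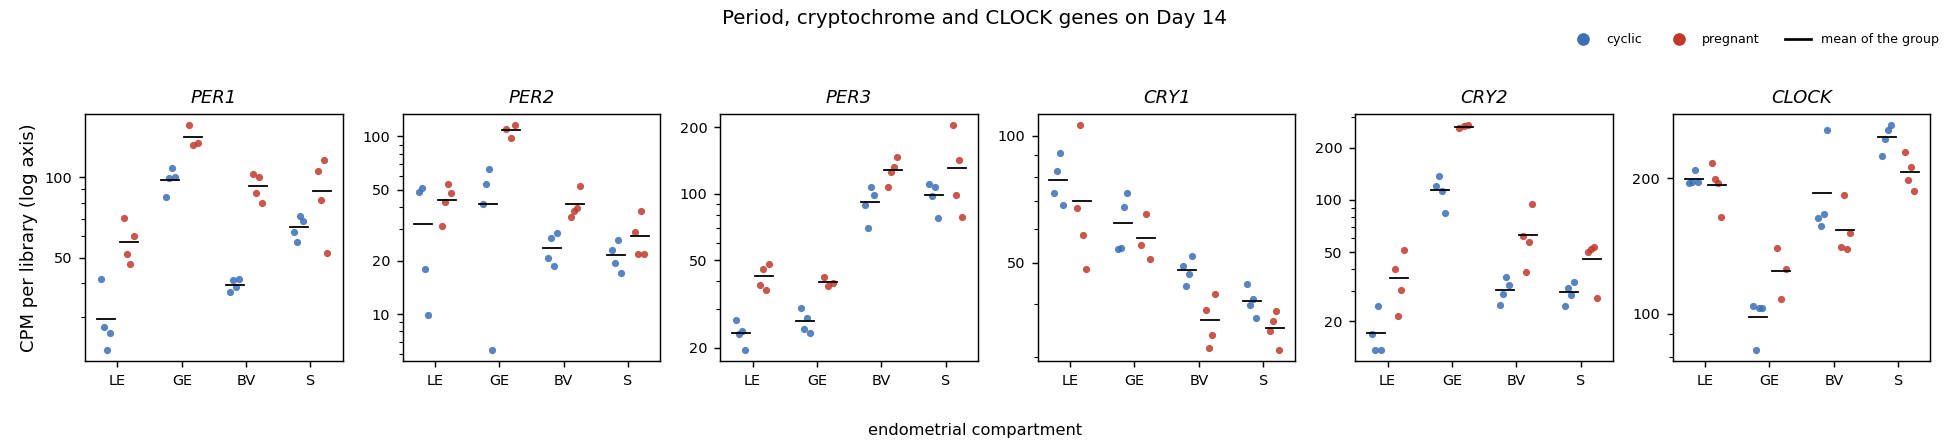
CPM on a log axis of PER1, PER2, PER3, CRY1, CRY2 and CLOCK in LE, GE, BV and S, with a point for each library (cyclic blue, pregnant red) and a bar at the mean of the group. CRY2 and PER1 are highest in GE, pregnant PER1 in BV lies above the cyclic points, and the points of CRY1 and CLOCK overlap between the groups except for CRY1 in BV and CLOCK in GE.

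Over the 10 genes and 4 compartments, 33 of 40 log2 fold changes were above 0, and the 7 below 0 all belonged to CRY1 and CLOCK. Of all detectable genes, 49.4%, 49.3%, 50.2% and 50.1% were above 0 in the order LE, GE, BV and S. The median log2 fold change of the 10 genes was 1.02, 1.01, 0.94 and 0.44 in the same order, against -0.01, -0.01, 0 and 0 over all detectable genes. All pregnant libraries lay above all cyclic ones for 6, 9, 6 and 3 of the clock genes, again from LE to S, and 10.3%, 11.6%, 8.68% and 3.62% of all detectable genes did so. The opposite order was met by CRY1 in BV and by no other clock gene, and by 9.12%, 11.3%, 9.54% and 5.19% of all detectable genes. The study's rule sets a false discovery rate of 1% for LE. It carries the highest unadjusted p that passes there over to GE, BV and S as their limit. The paper applied this rule to edgeR's robust GLM and reached a higher limit. The limit used here, 0.000328, comes from edgeR's quasi-likelihood test. Past that limit were NR1D1 and NR1D2 in LE, where the rule called 3.32% of all genes, NR1D1, CRY2 and DBP in GE (0.748%), NR1D1, PER1 and TEF in BV (1.86%), and NR1D1 and DBP in S (0.293%). Since the genes were picked on this contrast, nothing is read from these counts.

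**Figure D3:**
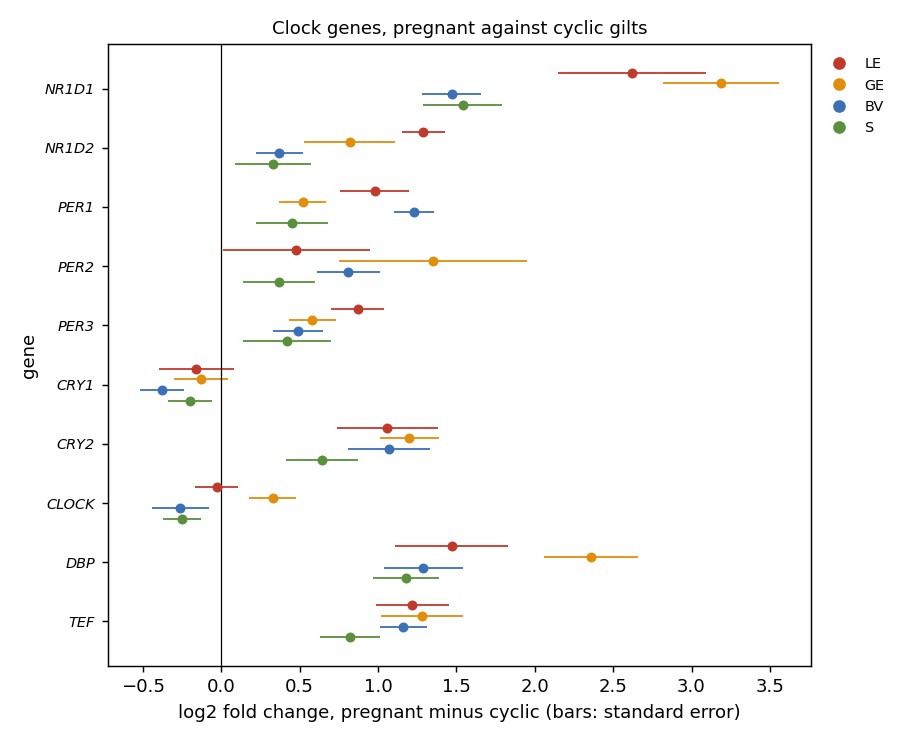
Log2 fold change, pregnant minus cyclic (points, with bars of 1 SE), of the 10 clock genes in LE (red), GE (orange), BV (blue) and S (green). NR1D1 lies furthest to the right, from 1.47 in BV to 3.19 in GE, and CRY1 and CLOCK lie around 0.

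Leaving out a library in turn changed which of the genes were past the limit. For LE the limit was set anew in each such fit, while GE, BV and S kept 0.000328. Of all genes, 101 to 439 were called in LE, 38 to 110 in GE, 77 to 231 in BV and 12 to 52 in S. NR1D2 in LE was past the limit every time. NR1D1 in LE was so only without cyclic gilt C78, although its log2 fold change stayed between 2.23 and 3.12. In BV, NR1D1, PER1 and TEF were past it every time. In GE, NR1D1 was past it every time, DBP was lost without pregnant gilt P39, and CRY2 was kept only without cyclic gilt C128 or C42, with log2 fold changes of 2.15 to 2.49 and 1.07 to 1.32. In S, DBP was lost every time (1.06 to 1.27), and NR1D1 was lost without cyclic gilt C128, C40 or C78 or pregnant gilt P43, with log2 fold changes of 1.36 to 1.68. With the log2 epithelial marker sum as a covariate in BV, the log2 fold changes were 1.45 (SE 0.38) for NR1D1, 1.38 (SE 0.25) for PER1, 1.16 (SE 0.30) for TEF and 1.36 (SE 0.51) for DBP, but 0.03 (SE 0.27) for PER3, and 1 of 11096 genes was called in all. With the leukocyte marker sum in LE, NR1D1 was at 3.64 (SE 0.31) and CRY2 at 1.58 (SE 0.34), beside 2.62 and 1.06 without it. In GE with that sum, PER2 was at 3.13 (SE 1.17) and NR1D2 at 1.52 (SE 0.53), beside 1.35 and 0.82 without it, NR1D1 at 3.77 (SE 0.78), DBP at 2.54 (SE 0.61) and CRY2 at 1.54 (SE 0.39), none of the 10 was past the limit, and 6 genes were called in all. The epithelial sum in BV and the leukocyte sum in GE did not overlap between pregnant and cyclic gilts. Fits with these sums can thus hardly separate the covariate from pregnancy, and nothing is read from them.

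Levels between compartments were not used to pick the genes and were tested, with edgeR's quasi-likelihood test in a joint fit of all 31 libraries, adjusted over 13887 genes and called at a false discovery rate of 1%. Of the 60 pairs of compartments over the 10 genes, 32 were called in cyclic and 25 in pregnant gilts. In cyclic gilts, 4 genes differed between LE and GE, 6 between LE and BV, 7 between LE and S, 7 between GE and BV, 8 between GE and S and none between BV and S, where 27.8%, 37.0%, 37.6%, 48.4%, 48.0% and 2.53% of all genes did. In pregnant gilts, the counts were 5 (LE and GE), 5 (LE and BV), 6 (LE and S), 3 (GE and BV), 6 (GE and S) and 0 (BV and S), beside 23.5%, 28.6%, 28.3%, 36.1%, 38.5% and 0.0720% of all genes. Leaving out a gilt in turn gave 29 to 35 pairs in cyclic and 17 to 27 in pregnant gilts. These counts of calls stand beside the shares of all genes, and nothing about the 10 genes as a set is read from them.

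CRY2 and PER1 were highest in the glands of cyclic gilts. In cyclic gilts CRY2 was at 114 ± 22.5 CPM in GE against 17.1 ± 5.04 in LE, 30.4 ± 4.66 in BV and 29.4 ± 4.02 in S (SD, n = 4 each). It was lower in LE than in GE by -2.73 on the log2 scale (SE 0.27, edgeR adjusted p = 3.3e-08), and in pregnant gilts by -2.89 (SE 0.28, adjusted p = 6.04e-08). PER1 was at 98.1 ± 9.88 CPM in cyclic GE against 29.3 ± 8.36 in LE, 39.6 ± 2.03 in BV and 65.1 ± 6.55 in S, and all 3 differences from GE were called (adjusted p = 1.75e-07, 2.5e-06 and 0.00946), although that from S was lost without any 1 of the cyclic gilts or of P39 and P41 (log2 difference 0.53 to 0.64 in these fits). TEF was set apart in LE, at 10.6 ± 2.52 CPM against 31.7 ± 8.61 in GE, and GE, BV and S did not differ past the threshold. The difference between GE and S was -0.25 (95% interval -0.66 to 0.17).

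PER3, NR1D1, NR1D2 and DBP were higher in BV and S than in both epithelia of cyclic gilts, and for each of them all 4 of these differences were called. PER3 was at 98.1 ± 14.9 CPM in S and 91.3 ± 15.9 in BV against 26.4 ± 3.18 in GE and 23.2 ± 2.92 in LE (GE minus S -1.89 on the log2 scale, SE 0.21, adjusted p = 2.91e-08). NR1D1 was at 25.2 ± 6.54 CPM in S and 16.2 ± 3.41 in BV against 4.96 ± 2.58 in GE and 4.41 ± 2.38 in LE (LE minus S -2.48, SE 0.36, adjusted p = 3.49e-06). In pregnant gilts PER3 kept all 4 of these calls. For NR1D1 only LE against S was called (27.3 ± 13.4 against 72.7 ± 20 CPM, -1.41, SE 0.32, adjusted p = 0.000962, but up to 0.0301 and not called without P39 or P43). NR1D1 was at -0.71 (95% interval -1.36 to -0.05) for LE minus BV, 0.05 (-0.65 to 0.75) for GE minus BV and -0.66 (-1.36 to 0.05) for GE minus S. For NR1D2 no pair was called. Its interval lay below 0 for GE minus S (-0.65, 95% interval -1.13 to -0.17) and held 0 for LE minus BV, LE minus S and GE minus BV. The change of calls from cyclic gilts involves the contrast the genes were picked on and was not tested. DBP in pregnant GE, 18.8 ± 4.58 CPM (SD, n = 3), did not differ past the threshold from BV (-0.16, 95% interval -0.70 to 0.38) or S (-0.45, 95% interval -0.99 to 0.08), while it was above LE (LE minus GE -1.45, SE 0.27, adjusted p = 0.000147).

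CLOCK and CRY1 had orders of their own. CLOCK was lowest in GE, at 98.4 ± 10.3 CPM against 199 ± 6.78 in LE, 186 ± 46.8 in BV and 247 ± 17.3 in S of cyclic gilts, and GE differed from each (adjusted p = 3.3e-06, 3.94e-06 and 1.59e-08). In pregnant gilts GE, at 125 ± 15.8 CPM (SD, n = 3), still lay below LE and S (lost for LE without P39 or P43 and for S without P43) but did not differ past the threshold from BV (-0.30, 95% interval -0.61 to 0.01). TMEM165, whose exons overlap those of CLOCK, was lowest in GE as well. Its cyclic means were 17.5 CPM in GE against 98.1 in LE, 47.7 in BV and 33.5 in S. How far shared reads enter the levels of CLOCK was not tested. The mean of CRY1 decreased in the order LE, GE, BV and S, with 78.7 ± 9.99, 62.3 ± 9.74, 48 ± 3.28 and 40.6 ± 3.11 CPM in cyclic gilts, and neighbours in this order did not differ past the threshold, whereas LE against BV (0.71, SE 0.17, adjusted p = 0.00138, but up to 0.0273 and not called without C42 or C78) and LE against S (0.95, SE 0.17, adjusted p = 6.83e-05) did. For PER2 no pair was called in cyclic gilts, with 41.9 ± 25.7 CPM in GE as the highest and 21.4 ± 4.04 in S as the lowest mean. In pregnant gilts PER2 in GE, at 108 ± 8.89 CPM, was above S at 27.7 ± 7.72 (1.97, SE 0.47, adjusted p = 0.00106, but up to 0.0126 and not called without P139 or P39). With the gilt as a block in this fit, 32 and 24 pairs were called, and the pair lost was PER1 between LE and S of pregnant gilts (-0.63, SE 0.19, adjusted p = 0.00946, and 0.0132 with the block).

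Per kb of exon, the levels can be compared between the genes only roughly. The length used was all annotated exon bases of a gene together, from 2801 for DBP to 17277 for CRY1. This can exceed the length of a single transcript. In cyclic LE, CLOCK was at 29.1 ± 0.994 CPM per kb and NR1D2 at 19.3 ± 2.04, followed by PER1 at 4.8 ± 1.37, CRY1 at 4.56 ± 0.578 and PER2 at 4.19 ± 2.77, which lay within each other's spread. CRY2 was at 2.62 ± 0.771, TEF at 2.22 ± 0.529, PER3 at 1.5 ± 0.189, DBP at 0.896 ± 0.276 and NR1D1 at 0.607 ± 0.327 CPM per kb (SD, n = 4). The gene with the largest fold change thus had the lowest cyclic mean there, within the spread of DBP. In pregnant GE the order began with CRY2 at 40.4 ± 0.927 and NR1D2 at 40 ± 4.56 CPM per kb, followed by PER1 at 23.2 ± 2.27, CLOCK at 18.3 ± 2.31 and TEF at 16.3 ± 2.85 (SD, n = 3).

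Among gilts of the same group, the genes moved together only loosely. After the mean of each compartment and group was taken off log2 CPM, Pearson's r of the 45 pairs of genes over 31 libraries of 8 gilts had a median of 0.16 and was above 0 for 30 pairs, while the median r of these genes with all detectable genes was -0.01. Libraries of 1 gilt share the animal and no p is given. The highest values were 0.55 for PER2 and TEF, 0.53 for NR1D2 and PER2 and 0.50 for NR1D1 and NR1D2, and the lowest was -0.25 for CRY1 and DBP. The pair NR1D1 and DBP, which both stood out between pregnant and cyclic gilts, had an r of 0.11. Deviations of the gilt means made up 44.1% of the variance within groups for DBP, 43.1% for NR1D2 and 35.8% for NR1D1, down to 10.5% for TEF. Over all genes detectable in the 4 compartments the median was 34.2%, with quartiles of 23.3% and 45.7%. These shares were not corrected for the few libraries per gilt, so noise between libraries also adds to them.

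The genes most like NR1D1 were then sought among 9726 genes detectable in all compartments, by Pearson's r of log2 CPM over the 31 libraries after the mean of each compartment was taken off. This measure contains the difference between pregnant and cyclic gilts, and is given as a description. The 5 highest were MLLT6 (r = 0.91), TCP11L2 (0.90), MAU2 (0.90), BCL6 (0.89) and BMF (0.89). Their log2 fold changes in LE, GE, BV and S were 0.89, 0.85, 0.83 and 0.53 for MLLT6, 1.65, 1.59, 0.84 and 1.20 for TCP11L2, and 1.73, 1.90, 1.04 and 1.31 for BMF, which encodes a BH3-only protein of apoptosis. BCL6, a transcriptional repressor, had 1.35, 2.03, 0.66 and 0.42, and MAU2, a loader of cohesin, 0.81, 0.63, 0.38 and 0.26. Of the clock genes themselves, DBP ranked 12 (0.88), TEF 30 (0.86), NR1D2 53 (0.84) and CRY2 65 (0.84), followed by PER3 (0.79), PER1 (0.69) and PER2 (0.61), while CLOCK was at 0 and CRY1 at -0.45.

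The other genes of the pathway were tested between pregnant and cyclic gilts. Of 23 listed partners of the clock (its activators, ROR receptors, kinases, ubiquitin ligases and corepressors), 21 were matched, without TIMELESS and CSNK1E, and 20, 18, 19 and 19 were detectable, in the order LE, GE, BV and S. Past the limit of edgeR's quasi-likelihood test was 1 of 20 in LE, where the rule called 3.32% of all genes, and it was higher in pregnant gilts. None was past it in GE, BV or S. From LE to S, 8, 5, 1 and 2 had an unadjusted p under 0.05. DESeq2 called 3, 0, 0 and 1 of the partners and 11.2%, 6.64%, 8.5% and 2.6% of all genes, and the robust GLM of edgeR 5, 0, 0 and 1 of the partners and 11.8%, 6.66%, 11% and 3.16% of all genes. Of all genes, 26.9%, 23.0%, 28.5% and 14.5% had an unadjusted p under 0.05 in LE, GE, BV and S. Their median log2 fold changes were 0.26, 0.10, 0.10 and 0.13, beside -0.01, -0.01, 0 and 0 over all detectable genes.

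BHLHE40, which encodes the repressor DEC1 that competes at E-boxes, rose in LE. It was at 39.9, 35.8, 59.6 and 42.1 CPM in cyclic and at 124, 133, 109 and 105 CPM in pregnant gilts, a log2 fold change of 1.42 (SE 0.19, edgeR adjusted p = 0.00327). All pregnant gilts were above all cyclic ones there, while its log2 fold changes were -0.01 in GE, -0.25 in BV and -0.04 in S. Its relative BHLHE41 was not called by the same test in any compartment, with -1.94 in LE (SE 0.69, adjusted p = 0.102) and 0.99 in S (SE 0.27, adjusted p = 0.173), but the robust GLM called it in LE. The call of BHLHE40 was lost without cyclic gilt C40 or pregnant gilt P139, P39 or P43 (log2 fold changes 1.33 to 1.59, adjusted p up to 0.0135), and with the leukocyte marker sum as a covariate (adjusted p = 0.0142). Over 8 alternatives its adjusted p ran from 1.71e-09 to 0.0142.

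BMAL1, listed as ARNTL, is the partner of CLOCK and a target of the REV-ERB proteins. In LE it was at 8.83, 5.68, 6.56 and 9.56 CPM in cyclic and at 30.6, 29.9, 12.7 and 10.9 CPM in pregnant gilts, so the pregnant values all lay above the cyclic ones but split into a high and a low pair (log2 fold change 1.47, SE 0.40, adjusted p = 0.0482, not called, though DESeq2 and the robust GLM called it). In GE, BV and S its log2 fold changes were 0.05 (SE 0.34), 0.01 (SE 0.31) and 0.23 (SE 0.24), beside 3.19, 1.47 and 1.54 for NR1D1. NPAS2, which can take the place of CLOCK, had 1.06 in LE (SE 0.31, adjusted p = 0.0613, called by the robust GLM), 0.34 in GE, -0.03 in BV and 0.40 in S. RORA, a ROR receptor that activates at ROR elements, was not called in any compartment (0.26, 0.83 and 0.11 in LE, GE and BV, and -0.04 in S). RORB, a related receptor named after its values were seen, was at 165, 146, 114 and 160 CPM in cyclic and at 356, 474, 221 and 261 CPM in pregnant LE. Its groups lay apart there (1.18, SE 0.26, adjusted p = 0.022), and DESeq2 and the robust GLM called it, while edgeR's quasi-likelihood test did not. In GE, BV and S the log2 fold changes of RORB were 0.64, 0.42 and 0.23. Its cyclic mean was 146 CPM in LE against 228 in GE, 777 in BV and 2280 in S. How much of its LE signal came from stromal RNA in the captures was not tested. NFIL3, a repressor at D-boxes, had -0.65, -0.24 and 0.38 in LE, GE and BV and -1.17 in S (SE 0.29, adjusted p = 0.145, called by DESeq2 and the robust GLM), and HLF, the other PAR bZIP factor, had 0.32, 1.20 (SE 0.32, adjusted p = 0.089), 0.21 and 0.47. CIART, a repressor of CLOCK and BMAL1, had 0.48 in LE, 0.31 in BV and 0.71 in S and was not detectable in GE, and none of these was called by the quasi-likelihood test.

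Of 12 listed output genes of the clock, 10 were detectable and none was called, with 2, 4, 2 and 0 at an unadjusted p under 0.05 in LE, GE, BV and S. DESeq2 called 0, 3, 1 and 0 of them and the robust GLM 1, 3, 1 and 0, beside the shares of all genes given above for these tools. Of 10 genes that respond to glucocorticoids, hormones that can also set peripheral clocks, 2 were called in LE, where the rule called 3.32% of all genes. Both were higher in pregnant gilts. None was called in GE, BV or S, where the rule called 0.748%, 1.86% and 0.293% of all genes. There, 6, 4 and 2 had an unadjusted p under 0.05, DESeq2 called 4, 1 and 0 and the robust GLM 5, 3 and 0. In LE, 8 had an unadjusted p under 0.05, and DESeq2 called 3 and the robust GLM 5. KLF9, a zinc finger transcription factor, was at 4.55, 3.5, 5.14 and 13 CPM in cyclic and at 42.4, 37.5, 31.6 and 37.5 CPM in pregnant LE (log2 fold change 2.50, SE 0.40, edgeR adjusted p = 0.00667). CEBPD, a bZIP transcription factor, was at 38.8, 82.8, 74.2 and 74.9 CPM in cyclic and at 185, 181, 169 and 193 CPM in pregnant LE (1.44, SE 0.24, adjusted p = 0.00682). The groups lay apart for both. With 1 of the 8 libraries left out, the call of KLF9 was kept only without cyclic gilt C78 (adjusted p 0.000502 to 0.0246) and that of CEBPD only without cyclic gilt C128 or C78 (0.00273 to 0.0244), while the log2 fold changes stayed between 2.27 and 3.12 and between 1.24 and 1.54. With the leukocyte marker sum as a covariate in LE, KLF9 was called and CEBPD was not (adjusted p = 0.0166). In GE, BV and S, KLF9 had log2 fold changes of 2.20 (SE 0.44, groups apart, edgeR adjusted p = 0.0513), 1.09 and 1.11. CEBPD had 1.12, 1.17 and -0.23 there. The quasi-likelihood test called none of these, but the robust GLM called both genes in GE and BV, and DESeq2 called KLF9 in GE.

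**Figure D4:**
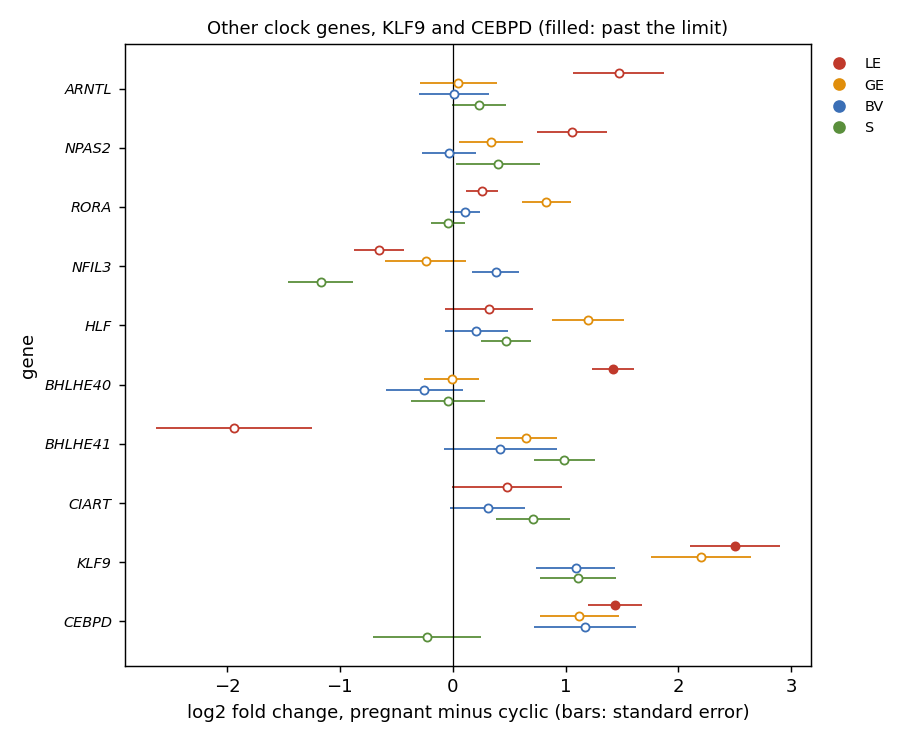
Log2 fold change, pregnant minus cyclic (points, with bars of 1 SE), of 8 clock partners, KLF9 and CEBPD in LE (red), GE (orange), BV (blue) and S (green), where detectable. Filled points were past the limit used here, an unadjusted p of 0.000328 in edgeR's quasi-likelihood test. They are BHLHE40, KLF9 and CEBPD in LE, while BHLHE40 lies near 0 in GE, BV and S.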

How the data were processed

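Laser-captured LE, GE, BV and S of 4 pregnant and 4 cyclic gilts were measured by RNA-seq. The authors mapped reads to Sscrofa11.1 (Hisat2, after trimming by Trim Galore), and QuasR gave the counts per NCBI gene once nudup had taken out PCR duplicates. Versions and the minimum CPM of their filter are not given in the sources used here. The deposited values are raw counts, 1 column per library, in a full and a filtered table per compartment, and 0 columns were left unmapped.

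Counts of the filtered tables were fitted per compartment with edgeR 4.0.16 (quasi-likelihood F test, TMM) in R 4.3.3 and adjusted by Benjamini and Hochberg's method. Standard errors were derived from the coefficient and its F statistic. The study's call rule was used with this test, and the robust GLM named in the paper and DESeq2 1.42.0 were alternatives. The fits were tested on simulated data. CPM and the comparison of compartments used TMM factors over all 31 libraries, and log2 CPM for correlations a prior count of 0.5. All 30185 gene IDs matched RefSeq's Sscrofa11.1 annotation.

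The genes and lists were chosen with earlier results of these data known. Named were the 10 genes, every pathway gene past the limit, ARNTL, NPAS2, RORA, NFIL3, HLF, BHLHE40, BHLHE41 and CIART, and the 5 genes most like NR1D1. A listed partner gene and a promoter window are not reported here. Compartments of a gilt share the animal. Over all genes detectable in the 4 compartments, deviations of same-gilt libraries correlated with r of -0.15 to 0.36, above 0.1 in 34 of 45 pairs of libraries. Alternatives were RLE or joint normalization (the latter chosen after seeing the data), no filter or edgeR's filterByExpr, no ribosomal RNA genes, an epithelial or leukocyte marker covariate, a false discovery rate of 5%, the gilt as a block and each library or gilt left out.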

Additional observations from a re-analysis of the deposited data

Results flagged for a closer look

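Of 70 groups of 4 libraries over the 10 genes, 9 held a library far from the other 3, by the gap to its nearest neighbour over the range of the group; chance flags about 1 in 20 such groups. Cyclic gilt C78 stood apart 3 times: NR1D1 was at 7.96 CPM in LE (next 3.48) and at 21.2 CPM in BV (next 15), and CLOCK at 209 CPM in LE (next 196). Pregnant gilt P139 stood apart 3 times: DBP was at 9.77 CPM in LE (next 6.08), NR1D2 at 222 CPM in BV (next 301) and CRY2 at 27.1 CPM in S (next 49.7). In cyclic gilt C128, CLOCK was at 256 CPM in BV (next 167) and TEF at 18.8 CPM in GE (next 35.5), and in cyclic gilt C42 CLOCK was at 83 CPM in GE (next 103).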

How the results depend on the processing

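No log2 fold change of the 10 genes that was past the limit turned its direction under any alternative, and the counts of compartment pairs called (32 and 25) stayed within 1.5 times. Of the 10 genes, 2, 3, 3 and 2 were past the limit in LE, GE, BV and S. DESeq2 gave 6 in LE and 6 in BV (11.2% and 8.5% of all genes), the robust GLM 5 and 6 (11.8% and 11%), a rate of 5% applied to each compartment by itself, without the limit carried over from LE, 6 in LE, 6 in BV and 0 in S, the leukocyte covariate 0 in GE and 1 in S, the epithelial covariate 0 in BV and 1 in S, and no filter 1 in S. Without single libraries the counts were 1 to 2 in LE, 1 to 4 in GE, 3 in BV and 0 to 1 in S. The limit for LE was set anew in each of these fits. They called 101 to 439, 38 to 110, 77 to 231 and 12 to 52 of all genes in the same order. Of the pathway genes, 3, 0, 0 and 0 were past the limit, against 6, 6, 2 and 1 by DESeq2. The robust GLM gave 10, 7, 4 and 1, and a rate of 5% gave 6, 1 and 2 in LE, GE and BV. In S the epithelial covariate gave 1. Without single libraries the counts were 0 to 4 in LE, 0 to 2 in GE and 0 to 1 in BV. The causes were not tested.

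These uncalled log2 fold changes turned sign. With the leukocyte covariate HLF was at -0.50 and CIART at -0.37 in LE, NFIL3 at 0.04 and BHLHE40 at 0.27 in GE, and RORA at 0.02 and BHLHE40 at 0.23 in S. With the epithelial covariate ARNTL was at -0.84, RORA at -0.06, BHLHE40 at 0.04 and BHLHE41 at -0.01 in BV, and CEBPD at 0.01 in S. BHLHE40 in GE was at 0 with DESeq2, RLE or joint normalization, and in S at 0.13 with the robust GLM; ARNTL in BV was at -0.01 without the filter and 0 with joint normalization. Without single libraries, ARNTL in GE ran from -0.18 to 0.23 and in BV from -0.20 to 0.35, NPAS2 in BV from -0.28 to 0.12, RORA in S from -0.11 to 0.06 and CEBPD in S from -0.58 to 0. BHLHE40 ran from -0.18 to 0.08 in GE, -0.54 to 0.01 in BV and -0.21 to 0.35 in S.

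With the gilt as a block, 32 and 24 compartment pairs were called, and no call other than that of PER1 between LE and S of pregnant gilts changed. Pregnant and cyclic gilts are different animals, so their comparison has no pairs. Cyclic NR1D1 and DBP in LE and GE rest on few counts, which limits the precision of their fold changes there. A group of 3 or 4 gilts limits the precision in every compartment.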
